A study of Mus musculus with 17 samples.

Results

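The difference between losing hnRNPH2 and substituting 1 of its residues was measured gene by gene in the cortex of 8-week-old mice. For each gene, the R206W effect (R206W minus R206W Control) was subtracted from the KO effect (KO minus KO Control), both on the scale log2(TPM + 1), where TPM is the abundance of a transcript corrected for its length and scaled to the same total in every library. This difference of differences is called the interaction below. It is negative where a transcript was lower in KO, or higher in R206W, than the other line's effect would give. It drew on 12 of the 17 samples: 3 KO, 3 KO Control, 3 R206W and 3 R206W Control mice.

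All 12 were C57BL/6J males at 8 weeks of age. KO mice carried an insertion or deletion in the X-linked Hnrnph2 gene that shifts the reading frame, so the transcript is open to nonsense-mediated decay and is lowered, not deleted. R206W mice were hemizygous for a tryptophan in place of an arginine in the nuclear localization signal of hnRNPH2, and both control groups were wild type. Each allele was carried as a single line, so an allele and its line cannot be told apart. The remaining 5 samples were 3 P209L mice, which carried a different substitution in the same signal, and 2 of their controls, all at 3 weeks of age. They were used here to look at the same genes in mice whose levels do not enter the difference itself, although they share its fit. RNA was total RNA from dissected bulk cortex, in which fewer cells of a type and less RNA per cell cannot be told apart.

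hnRNPH2 is an RNA-binding protein that recognizes runs of guanines in pre-mRNA and takes part in splicing and other steps of RNA processing. Its closest relative, hnRNPH1, is encoded on an autosome and recognizes the same kind of sequence. The nuclear localization signal is read by karyopherin-beta2 (transportin), which carries the protein into the nucleus. Loss removes the protein wherever it acts, whereas a substitution in the signal leaves a protein in the cell whose traffic and interactions may differ.

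The table held no read counts, so the depth of each library is unknown and precision was judged from the spread between mice. KO Control 1 stood apart: mitochondrially encoded genes held 20.1% of its TPM (10.7% to 15.4% in the other 16 samples), and the 10 genes of highest level held 36.5% (elsewhere 19.4% to 29.3%). As a check of the tissue, excitatory neuron markers summed to 709 to 1326 TPM and cerebellar and thalamic markers to 57.5 to 77.2 TPM in the 12 mice. KO Control 1 is 1 of only 3 mice that set the KO baseline, so values without it are given beside the results that rest on it.

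Of 16265 genes with a mean of at least 1 TPM, 5 had an interaction at an adjusted p under 0.05 (limma, Benjamini-Hochberg adjustment over all genes), which is 0.0307% of those tested. All 5 were negative. They were Hnrnph2 itself, Ppp1r9b, Gm31166, Ilrun and Ddn. Without KO Control 1 there were 12, 11 negative and 1 positive, with all 5 among them. Hnrnph2 was the 1 gene of the 5 that differed through KO, and the other 4 differed through R206W. Taken singly, the KO effect passed the same threshold for 1 gene, Hnrnph2 (0.00615%), and the R206W effect for 6 genes (0.0369%): Gm31166, Ppp1r9b, Ilrun, Ddn, Phactr3 and Ppfia3.

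**Figure D1:**
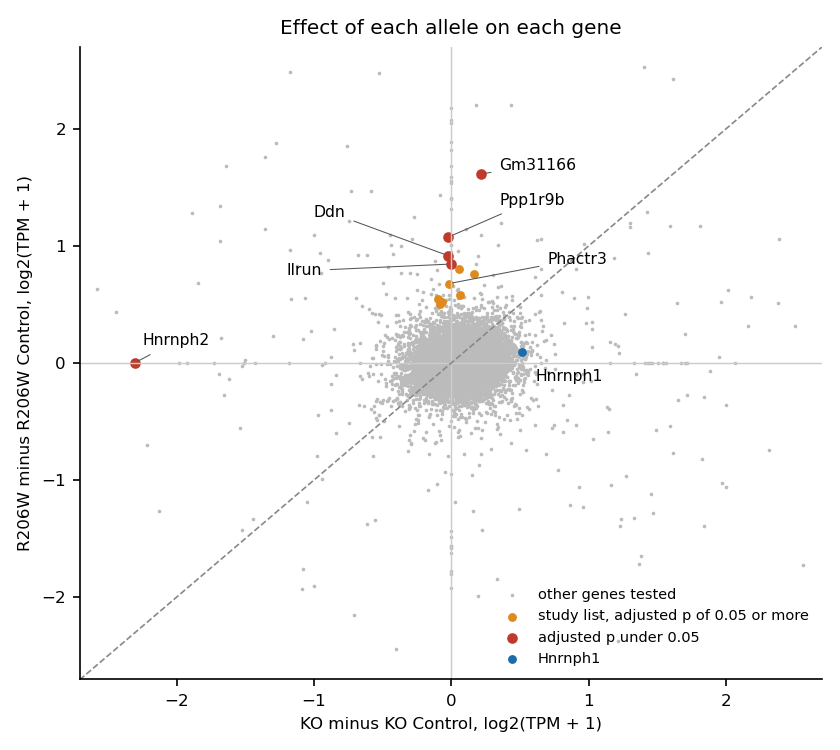
Each point is 1 of the 16265 genes tested, with the KO effect on the horizontal axis and the R206W effect on the vertical axis, both as differences in log2(TPM + 1); the dashed line marks equal effects, and 24 genes with an effect beyond the axes are not drawn. Hnrnph2 lies far to the left at a KO effect of -2.30 and an R206W effect of 0.00, while Gm31166, Ppp1r9b, Ddn and Ilrun lie above the cloud at KO effects between -0.02 and 0.21.

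Hnrnph2 (ENSMUSG00000045427.13, chrX:134601179-134607060, plus strand, mm10) checks the labels. Its level was 23.5, 21.3 and 24.4 TPM in the 3 KO mice, against 80.5, 145 and 140 TPM in KO Control mice. In R206W mice it was 142, 135 and 160 TPM, and in R206W Control mice 149, 147 and 140 TPM. Every KO mouse lay below every other mouse, and the R206W group overlapped its controls. The interaction was -2.31 (SE 0.241, adjusted p = 0.00106 in limma, 95% interval -2.82 to -1.80). Without KO Control 1, which had the lowest level of any control, it was -2.58.

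Hnrnph1, the paralog, was the member of the family with the largest positive interaction. Its level was 443, 445 and 408 TPM in KO mice and 246, 337 and 329 TPM in KO Control mice. It was 377, 375 and 355 TPM in R206W mice and 336, 323 and 377 TPM in R206W Control mice. Each KO mouse was above all 9 other mice, while the R206W mice overlapped their controls. The interaction was 0.42 (SE 0.181, 95% interval 0.03 to 0.80), but it did not pass the adjustment over all genes (adjusted p = 1.0 in limma). An exact two-sided permutation of genotypes within each line gave p = 0.11 over 400 arrangements. The smallest possible p is 0.005, which needs the most extreme split in both lines, in opposite directions. Without KO Control 1 the interaction was 0.27.

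The other members of the family gave small values. Hnrnpf, which also binds guanine runs, had an interaction of 0.12 (95% interval -0.46 to 0.70), and Hnrnph3 had 0.14 (-0.28 to 0.55). Both turned negative without KO Control 1, at -0.15 for Hnrnpf and -0.04 for Hnrnph3. These intervals leave room for a difference in either direction. Of the next genes along the X chromosome, Rpl36a had an interaction of 0.00 (SE 0.259) and Gla of 0.32 (SE 0.184). Of the 14 neighbours tested, 0 reached an unadjusted p under 0.05. Without KO Control 1, 2 negative ones did, against 814 of 16265 over all genes.

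Ppp1r9b (ENSMUSG00000038976.12, chr11:94991035-95006899, plus strand) encodes spinophilin, a scaffold that holds protein phosphatase 1 at actin in dendritic spines. It stood at 780, 786 and 745 TPM in R206W mice and at 339, 368 and 389 TPM in R206W Control mice. KO mice had 348, 348 and 409 TPM, and KO Control mice 364, 376 and 378 TPM. The R206W mice were separate from the other 9, which overlapped. The interaction was -1.10 (SE 0.137, adjusted p = 0.00406, limma).

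Ddn (ENSMUSG00000059213.7, chr15:98803777-98809490, minus strand) encodes dendrin, a postsynaptic protein whose messenger is found in dendrites. R206W mice had 1071, 953 and 920 TPM, against 527, 518 and 509 TPM in R206W Control mice. KO mice had 441, 501 and 524 TPM, and KO Control mice 512, 484 and 489 TPM. Again the R206W mice alone stood apart. The interaction was -0.94 (SE 0.145, adjusted p = 0.0273, limma). An antisense gene annotated across the locus, B130046B21Rik, had the same order, at 13.6, 10.1 and 12.8 TPM in R206W mice and 3.62 to 8.78 TPM in the other 9. The libraries were stranded, but whether strand was used in counting is not given in the sources used here, so the reads of these partners may not be fully separated.

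Ilrun (ENSMUSG00000056692.13, chr17:27751235-27820648, minus strand, named D17Wsu92e in the annotation) encodes a regulator of inflammatory and lipid responses. Its level was 320, 324 and 318 TPM in R206W mice and 175, 177 and 182 TPM in R206W Control mice. KO mice had 172, 167 and 189 TPM, and KO Control mice 159, 184 and 187 TPM. The R206W mice did not overlap any other mouse. The interaction was -0.85 (SE 0.130, adjusted p = 0.0273, limma).

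Gm31166 (ENSMUSG00000109695.1, chr19:5512528-5550368, plus strand) is annotated as a transcribed processed pseudogene. R206W mice had 9.51, 9.36 and 8.36 TPM, and R206W Control mice 2.11, 2.39 and 2.36 TPM. KO mice had 3.74, 2.68 and 2.66 TPM, and KO Control mice 2.61, 2.51 and 2.23 TPM. The R206W mice were far above the rest, and the KO mice were just above their own controls. The interaction was -1.40 (SE 0.176, adjusted p = 0.00406, limma). Its annotation overlaps the coding gene Ovol1 on the opposite strand, which was at no more than 0.03 TPM in the 12 mice. Pseudogenes can share reads with related copies, so its level is less certain than that of the other genes.

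Hnrnph2, Ppp1r9b and Gm31166 passed in all 12 fits that left out 1 mouse. Ilrun and Ddn passed in 2 of the 12, those without KO Control 1 and without KO 3, with interactions across all 12 fits of -0.92 to -0.81 for Ilrun and -0.99 to -0.87 for Ddn. Leaving out any of the other 10 mice gave adjusted p = 0.08624 to 0.137 for Ilrun and 0.06483 to 0.138 for Ddn in limma.

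**Figure D2:**
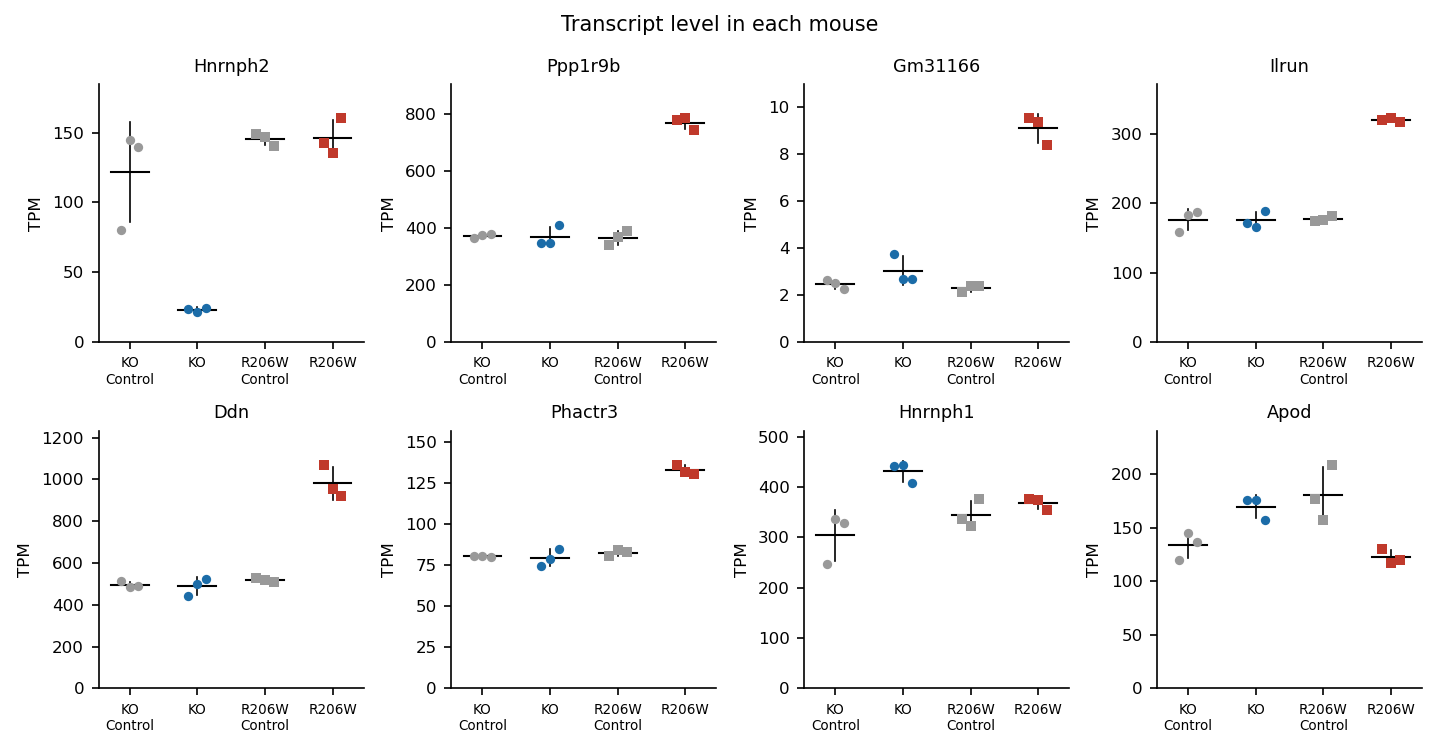
TPM of 8 genes in each of the 12 mice on linear axes that start at 0, with circles for the KO line, squares for the R206W line and grey for controls; the bar is the group mean and the vertical line the SD (n = 3). The R206W mice stand alone at the top for Ppp1r9b (770 ± 22.2 TPM), Gm31166, Ilrun, Ddn and Phactr3, whereas the KO mice stand alone for Hnrnph2 (23.1 ± 1.60 TPM) and Hnrnph1 (432 ± 20.7 TPM).

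Promoter sequence is given for Ppp1r9b and Ilrun, called genes that differed together through R206W, from RefSeq (GRCm38.p6). Each window is 300 bases in the direction of transcription, across the annotated start. Capitals mark the cAMP-response half-site TGACG and the GC box GGGCGG, searched on both strands. Sites that overlap run together.
Ppp1r9b, chr11:94990962-94991261, plus strand: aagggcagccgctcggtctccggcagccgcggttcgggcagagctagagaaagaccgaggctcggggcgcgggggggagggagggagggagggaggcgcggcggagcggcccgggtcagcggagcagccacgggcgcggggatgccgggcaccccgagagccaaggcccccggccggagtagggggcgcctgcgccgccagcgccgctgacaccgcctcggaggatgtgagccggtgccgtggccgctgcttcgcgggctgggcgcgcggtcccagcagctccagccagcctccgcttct
Ilrun, chr17:27820493-27820792, minus strand: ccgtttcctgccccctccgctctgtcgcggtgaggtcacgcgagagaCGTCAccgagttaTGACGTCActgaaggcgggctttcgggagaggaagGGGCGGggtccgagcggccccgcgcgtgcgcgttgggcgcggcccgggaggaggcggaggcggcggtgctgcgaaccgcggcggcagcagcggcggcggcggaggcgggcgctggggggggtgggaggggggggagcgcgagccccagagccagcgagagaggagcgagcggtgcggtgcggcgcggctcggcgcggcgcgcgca
The Ppp1r9b window held neither motif. The Ilrun window held 3 half-sites, of which a pair overlap as a palindrome, and 1 GC box. Of 32851 promoter windows of this length, 20.8% held the half-site and 35.7% the GC box. A match describes letters only, and the windows of these genes had no such letters in common.

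At an unadjusted p under 0.05 there were 373 genes (2.29% of those tested), of which 107 were negative (0.658%), the 5 called genes included, and 266 positive (1.64%). Without the called genes there were 368, 102 of them negative. Across all genes the median interaction was 0.05, and 63.0% of genes were above 0. Positive genes made up 71.3% of the 373, but 43.1% with median-of-ratios scaling, 49.0% with quantile normalization and 28.3% without KO Control 1. The balance between positive and negative genes therefore depended on scaling and on 1 control mouse. Without that mouse the median of all genes moved to -0.07.

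Of the 107, the larger change was in R206W for 72 (67.3%, against 41.7% of all genes tested) and in KO for 35. Of the 266, it was in KO for 182 (68.4%, against 58.2% of all genes) and in R206W for 84. Opposite signs in the lines were the common case, in 92 of the 107 and 252 of the 266 (41.5% of all genes), and this follows from choosing genes on the difference. Among the 107, 101 (94.4%) were above 0 in R206W, and among the 266, 13 (4.89%), against 52.9% of all genes. Choosing genes on the difference tilts these shares as well. The shares of larger change come from the same values and are a description only. Protein-coding genes were 57.0% of the 107 and 70.7% of the 266, against 82.5% of all genes tested.

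The genes of both directions were shorter and lower than the rest. Median transcript length was 891 bases in the 107 and 830 bases in the 266, against 1330 bases over all genes, and median level 5.61 and 8.41 TPM, against 15.4 TPM. Base composition lay closer together. Where a transcript was matched, the median number of guanine runs per kilobase was 11.6 in the 107, 13.2 in the 266 and 12.2 over all genes. Median GC content was 49.6%, 51.8% and 50.5% in the same order. Across 16138 genes the interaction had a Pearson correlation of 0.03 with guanine runs and of -0.08 with log transcript length, as a description across genes that share the same 12 libraries.

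The P209L mice offered a look at the same genes in animals whose levels do not enter the difference itself. All 17 samples shared the filter on level and the residual spread of the fit. The P209L line therefore had a part in the p-values that chose these genes. Of the 107 negative genes, 81 (75.7%) were above 0 in P209L minus P209L Control, with a median of 0.28, against 53.5% and a median of 0.02 over all genes tested. Of the 266 positive genes, 169 (63.5%) were below 0 in P209L, with a median of -0.06, against 46.2% over all genes. Ppp1r9b stood at 580, 647 and 663 TPM in P209L mice, against 204 and 233 TPM in their controls. The P209L effect was 1.53 for Ppp1r9b (adjusted p = 2.49e-06, limma), 1.67 for Ddn, 1.64 for Gm31166 and 0.98 for Ilrun. All 4 passed, and Hnrnph2 itself was at 0.09 in P209L. The P209L mice were 3 weeks old, so substitution and age differ together between these mice and the R206W line.

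Ppp1r9b and Ddn, the called genes of the synapse, were members of separate lists. Among 34 genes for spine actin and protein phosphatase 1, 3 were negative at an unadjusted p under 0.05 and 0 positive. Over all genes 0.658% were negative and 1.64% positive. In this list 1 gene, Ppp1r9b, passed the adjustment. The others were Phactr3, which binds actin and the phosphatase, and Ppp1cb, a catalytic subunit of the phosphatase. Ppp1r9b and Phactr3 were also among the genes that the study named as raised by both substitutions and not by KO. That choice was made on these samples and fixed their direction, so counting them here adds no separate evidence. The list as a whole was centred near 0 (median 0.01), with 17 genes above 0 and 17 below, against 63.0% of all genes above 0. Without KO Control 1, 4 of 34 were above 0 (median -0.17), against 38.1% of all genes (-0.07). In that fit 4 were negative at an unadjusted p under 0.05, against 814 of 16265 over all genes. With median-of-ratios scaling 8 were above 0 (-0.06), against 46.3% of all genes (-0.01).

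Phactr3 (chr2:178118975-178338492) was the closest gene to the threshold. It stood at 136, 132 and 131 TPM in R206W mice, against 80.8, 84.2 and 82.9 TPM in R206W Control mice. KO mice had 74.6, 79.0 and 85.1 TPM and KO Control mice 80.4, 80.8 and 80.3 TPM. The pattern matched that of Ppp1r9b at a smaller size, with an interaction of -0.70 (SE 0.123, adjusted p = 0.110, limma). For Ppp1cb the interaction was -0.56 (SE 0.188). R206W mice had 254 to 279 TPM and all other mice 140 to 219 TPM.

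Of 30 postsynaptic density scaffolds, 3 were negative at an unadjusted p under 0.05 and 0 positive, against 0.658% and 1.64% of all genes. In this list 1 gene, Ddn, passed the adjustment. Besides Ddn these were Shank1, a master scaffold beneath glutamate receptors, and Sipa1l1, a Rap GTPase regulator in spines. Ddn and Shank1 were also among the genes named by the study, so their direction was fixed by that choice. Shank1 was at 294, 322 and 325 TPM in R206W mice, against 168, 177 and 194 TPM in their controls. In KO mice it was 161, 156 and 234 TPM, and in KO Control mice 133, 194 and 201 TPM. The lowest control value was KO Control 1, and without that mouse the interaction of Shank1 went from -0.74 (SE 0.238) to -0.93. The median of the whole list was -0.04, against 0.05 over all genes. It was -0.27 without KO Control 1, with 4 of 30 above 0, against a median of -0.07 and 38.1% above 0 over all genes.

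Other neuronal lists gave 1 negative gene or none at the same threshold. In 38 presynaptic genes it was Ppfia3, the active-zone scaffold liprin-alpha3 (-0.59, SE 0.158). In 33 adhesion genes it was Ctnna2, the neuronal alpha-catenin (-0.59, SE 0.178), and 8 of the 33 were above 0, against 63.0% of all genes. In 23 genes of GABA signalling it was Gabra3, a receptor subunit (-0.48, SE 0.183), and in 40 cytoskeletal and transport genes Brsk1, a kinase of axon polarity (-0.44, SE 0.151). Of 26 glutamate receptor genes 0 passed in either direction, with a median of -0.07, and the same was true of 23 sodium and calcium channel and 46 potassium channel genes, with medians of -0.01 and 0.03. None of the genes in these lists passed the adjustment over all genes. Ppfia3 and Ctnna2 were also among the genes named by the study, so their direction was fixed by that choice. Without KO Control 1, negative genes at the unadjusted threshold were 814 over all genes, and 8 presynaptic, 7 cytoskeletal, 6 glutamate receptor, 5 adhesion, 5 postsynaptic density and 3 GABA genes, as well as 4 sodium and calcium and 4 potassium channel genes, with 0 positive ones in these lists. Their medians were then -0.34 for adhesion, -0.30 for glutamate receptor, -0.27 for presynaptic, -0.25 for sodium and calcium channel, -0.23 for cytoskeletal, -0.22 for GABA and -0.19 for potassium channel genes, all below the -0.07 of all genes in that fit.

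The 10 genes that the study named as raised by both substitutions and not by KO were chosen on these samples, so their direction is fixed by that choice. All 10 were below 0, 9 of them at an unadjusted p under 0.05 and 3 (Ppp1r9b, Ddn and Ilrun) after adjustment, with a median of -0.67. The summed level was 3051, 2962 and 2921 TPM in R206W mice and 1602, 1621 and 1651 TPM in R206W Control mice. It was 1460, 1522 and 1742 TPM in KO mice and 1467, 1621 and 1649 TPM in KO Control mice. The tenth gene was Tnpo2, which encodes a transportin (-0.51, SE 0.274). Ash1l, a histone methyltransferase, was at -0.59 (SE 0.235), and Rimklb, an enzyme that joins glutamate to N-acetylaspartate, at -0.64 (SE 0.174). The other members were Phactr3, Shank1, Ppfia3 and Ctnna2, given above. Across 27 karyopherins, Tnpo2 included, the median was 0.03 with 0 genes at an unadjusted p under 0.05, but -0.16 with 6 negative genes without KO Control 1. Over all genes that fit gave a median of -0.07 and 814 negative genes of 16265.

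Immediate-early genes, which neurons transcribe within minutes of firing, had the lowest median after that list. The median of 22 rapid genes was -0.42, with 2 above 0. That of 20 later activity-dependent genes was -0.25, with 3 above 0. Over all genes the median was 0.05, and 63.0% were above 0. None of the 42 reached an unadjusted p under 0.05 in either direction (limma). The medians were -0.62 and -0.54 without KO Control 1, and 1 rapid and 4 later genes were negative at that threshold. The same fit gave a median of -0.07 over all genes, with 814 of 16265 negative. The median effect of the rapid genes was -0.01 in KO and 0.35 in R206W, and 22 of 22 were above 0 in R206W, against 52.9% of all genes.

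Single mice of a group varied widely in these genes. Arc, whose protein reshapes synapses after activity, was at 338, 461 and 668 TPM in R206W mice and 471, 310 and 303 TPM in R206W Control mice. In KO mice it was 123, 162 and 499 TPM, and in KO Control mice 208, 426 and 330 TPM. All 4 groups overlapped, and the interaction was -0.92 with an SE of 0.718. Summed over the rapid list, the levels ran from 820 to 2085 TPM in KO, 851 to 1794 TPM in KO Control, 1529 to 2877 TPM in R206W and 1339 to 1974 TPM in R206W Control. In each mutant group, mouse number 3 had the highest sum. The leave-one-out range of the list median was -0.71 to -0.10. Npas4, which answers calcium entry, was above 0 (0.19, SE 0.290) but at -0.06 without KO Control 1, with mutant mice above controls in both lines.

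**Figure D3:**
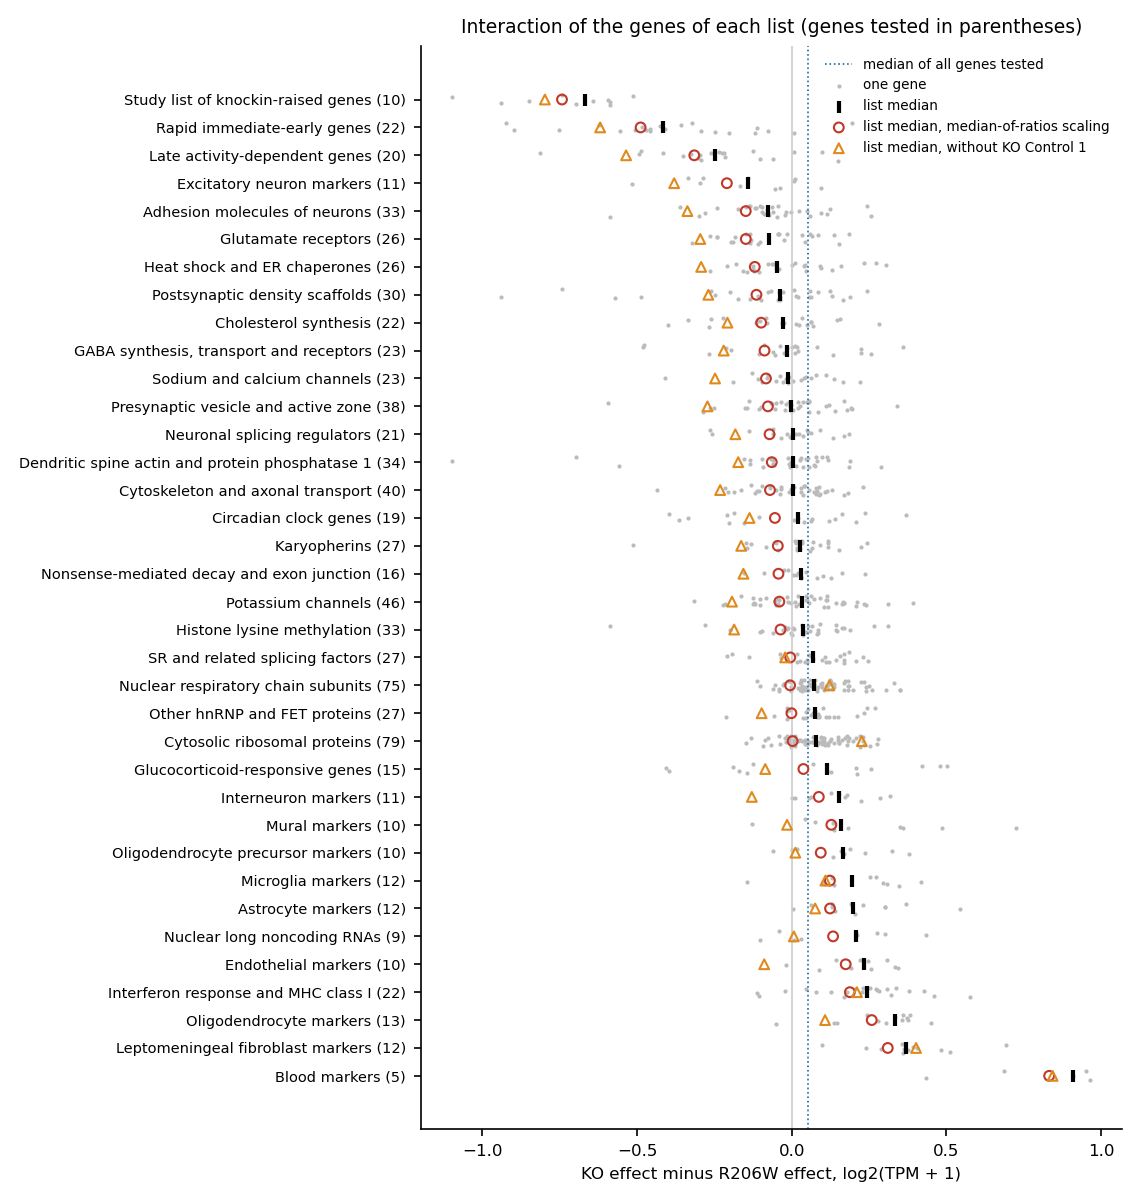
Interaction, as a difference in log2(TPM + 1), of every tested gene (grey) in 36 gene lists, with the list median (black bar), the median under median-of-ratios scaling (circle) and the median without KO Control 1 (triangle); the dotted line is the median of all genes, 0.05. The study's list (-0.67) and the rapid immediate-early genes (-0.42) lie lowest and the blood markers (0.91) highest, and most neuronal and splicing lists move left without KO Control 1, while ribosomal proteins move right to 0.23. The median of all genes also moves left in that fit, to -0.07.

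In the RNA-processing lists no gene passed the test at this precision (limma), and their medians turned with KO Control 1. At an unadjusted p under 0.05 there were 0 of 27 other hnRNP and FET genes, 0 of 27 SR and related splicing factors, 0 of 21 neuronal splicing regulators and 0 of 16 genes of nonsense-mediated decay and the exon junction. Their medians were 0.07, 0.07, 0.00 and 0.03. They were -0.10, -0.02, -0.18 and -0.16 without KO Control 1, with 1, 0, 3 and 1 negative genes at that threshold. The median of all genes also fell in that fit, from 0.05 to -0.07, with 814 of 16265 genes negative at the threshold. The gene with the smallest p in each had a 95% interval that crossed 0: Hnrnpll (-0.21, SE 0.147), Luc7l3 (0.23, SE 0.125), Khdrbs3 (-0.26, SE 0.188) and Rbm8a (0.16, SE 0.137). Differences in splicing were not measured, since the table gives 1 value per gene.

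The values of housekeeping lists moved with KO Control 1. Cytosolic ribosomal proteins had a median of 0.08, with 62 of 79 genes above 0 and 1, Rpl18, positive at an unadjusted p under 0.05 (0.28, SE 0.128). Without KO Control 1 the median was 0.23 and 78 of 79 genes were above 0, against 38.1% of all genes. In that fit 9 were positive at an unadjusted p under 0.05, against 322 of 16265 over all genes. KO Control 1 had the highest summed ribosomal level of the 12 mice, 45260 TPM against 30260 to 39740 TPM. Of 75 nuclear respiratory chain subunits, 3 were positive (Ndufa7, Ndufb7 and Ndufs6, at 0.33 to 0.35), with a median of 0.07. None passed the adjustment with all 12 mice. Without KO Control 1, 7 subunits were positive at the unadjusted threshold, with a median of 0.12 and 61 of 75 above 0. Cholesterol synthesis (22 genes, median -0.03), chaperones (26, -0.05), circadian clock (19, 0.02) and glucocorticoid-responsive genes (15, 0.11) had 0 genes at an unadjusted p under 0.05. Leaving out KO Control 1 gave 7 negative genes of cholesterol synthesis, 4 negative chaperones, 1 negative clock gene and 1 positive glucocorticoid-responsive gene, with medians of -0.21, -0.29, -0.14 and -0.09. Over all genes in that fit 814 of 16265 were negative at the threshold, and the median was -0.07. With all 12 mice there were also 0 among 9 nuclear long noncoding RNAs (0.21), 13 mitochondrially encoded genes (0.01), 10 oligodendrocyte precursor markers (0.16) and 10 striatal markers (-0.04). Of 33 histone methylation genes (median 0.04) Ash1l alone, a gene of the study's list, reached it, but without KO Control 1 there were 2. The median was then -0.19 and 2 of 33 were above 0, against -0.07 and 38.1% over all genes. Of 7 cerebellar and thalamic markers Cbln1 alone reached it (0.48, SE 0.209).

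On the positive side, 0 genes passed the adjustment in limma and 266 had an unadjusted p under 0.05. With sample weights 95 passed, and 1 passed without KO Control 1 and 1 without KO 1. Apod, a lipid-binding protein of glia and perivascular cells, was among the strongest. It was at 176, 176 and 157 TPM in KO mice and 120, 145 and 137 TPM in KO Control mice. In R206W mice it was at 130, 117 and 120 TPM and in R206W Control mice at 176, 157 and 208.8 TPM. The groups were separate in both lines and in opposite directions, and the 2 control groups did not overlap each other either. The interaction was 0.89 (SE 0.194, adjusted p = 0.466, limma).

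The other positive genes with the smallest p were of mixed kind. Prr5l, a partner of the mTOR complex, was at 6.03 to 7.34 TPM in KO mice, against 3.83 to 4.02 TPM in KO Control mice, with R206W at 4.86 to 5.17 TPM and its controls at 5.01 to 5.72 TPM (interaction 0.69, SE 0.148). Mgp, an inhibitor of calcification made in vessel walls and meninges, had an interaction of 0.88 (SE 0.204). Tshz2, a zinc-finger factor of cortical neurons, had 1.18 (SE 0.295). Bfsp2, Emp3 and Ly6a had interactions of 0.86, 1.13 and 0.55. Others were Gm5784 and the pseudogenes Rpl31-ps16 and Tpi-rs11, at 0.89 to 1.12, and the small nucleolar RNA Gm24616, which was listed at 0 in 8 of the 9 mice outside KO and at 3.82 to 11.8 TPM in KO. Adjusted p ran from 0.399 to 1.0 (limma). For Rpl31-ps16 the group apart was KO Control, at 0.71 to 1.69 TPM. KO mice had 2.91 to 3.57 TPM, R206W Control mice 3.23 to 3.58 TPM and R206W mice 3.52 to 4.11 TPM. For Gm5784 the control groups differed, at 0.86 to 1.03 TPM in KO Control and 2.20 to 2.36 TPM in R206W Control mice. KO mice (1.01 to 2.23 TPM) overlapped their controls.

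On the negative side the genes after the called ones and Phactr3 included Dmkn (-1.14), a secreted epidermal protein, the noncoding 4833412C05Rik (-1.01), Marf1, an RNA-binding ribonuclease (-0.57), Plb1, a phospholipase (-0.68), and the microRNA Mir8103, which was listed at 0 in 8 of the 12 mice. Dmkn differed from the rest in its source: KO mice had 1.53, 1.04 and 1.52 TPM against 2.88, 3.72 and 3.19 TPM in KO Control mice, and R206W mice 3.88, 3.15 and 3.49 TPM against 2.78, 2.82 and 2.44 TPM. Both lines separated from their controls, in opposite directions. Marf1 followed the R206W pattern, at 73.9 to 74.7 TPM in R206W mice and 47.4 to 57.1 TPM in the other 9. Adjusted p ran from 0.332 to 1.0 (limma).

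Markers of cells other than neurons lay on the positive side as whole lists, and so did interneuron markers (11 of 11 above 0, median 0.15). Blood markers had a median of 0.91, with all 5 tested of the 7 listed above 0 and 1, Hbb-bs, at an unadjusted p under 0.05. Their summed level was 761 to 1326 TPM in KO mice and 697 to 902 TPM in KO Control mice, against 561 to 693 TPM in R206W mice and 738 to 1254 TPM in R206W Control mice. The hemoglobin genes were far from 0 in every mouse, Hbb-bs at 203 to 596 TPM. Only the R206W line separated, with mutants below controls.

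Leptomeningeal fibroblast markers had a median of 0.37, with 12 of 12 above 0 and 1, Igf2, at an unadjusted p under 0.05 (0.69, SE 0.289). Summed levels were 100 to 167 TPM in KO, 87.2 to 113 TPM in KO Control, 79.8 to 127 TPM in R206W and 105 to 135 TPM in R206W Control mice, so all groups overlapped. Oligodendrocyte markers had a median of 0.33 with 12 of 13 above 0, astrocyte markers 0.20 with 12 of 12 above 0, microglia markers 0.19 with 11 of 12, endothelial markers 0.24 with 9 of 10 and mural markers 0.16 with 9 of 10. In these 5 lists 3 genes had an unadjusted p under 0.05: Aldoc (0.37), C1qb (0.42) and Ly6c1 (0.31). The share of all genes above 0 was 63.0%, and 0 of the marker genes passed the adjustment.

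KO Control 1 bears on part of this. Without it the medians were 0.11 for oligodendrocyte, 0.08 for astrocyte and 0.11 for microglia markers, and negative for endothelial (-0.09), mural (-0.01) and interneuron markers (-0.13, from 0.15), whereas fibroblast markers were at 0.40 and blood markers at 0.84. Excitatory neuron markers had a median of -0.14, and of -0.38 without KO Control 1, with Foxp2 the 1 gene at an unadjusted p under 0.05 (-0.52, SE 0.223) and 7 negative genes without that mouse. All genes in that fit had a median of -0.07, with 814 of 16265 negative at that threshold. Choroid plexus markers were too low to read, with 4 of 11 tested and 5.40 to 30.1 TPM summed over the list. Interferon and MHC class I genes had 19 of 22 above 0 and a median of 0.24, with Oasl2 alone at an unadjusted p under 0.05 (0.58, SE 0.263). The part that blood, meninges or glial content had in the interaction of other genes was not tested.

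**Figure D4:**
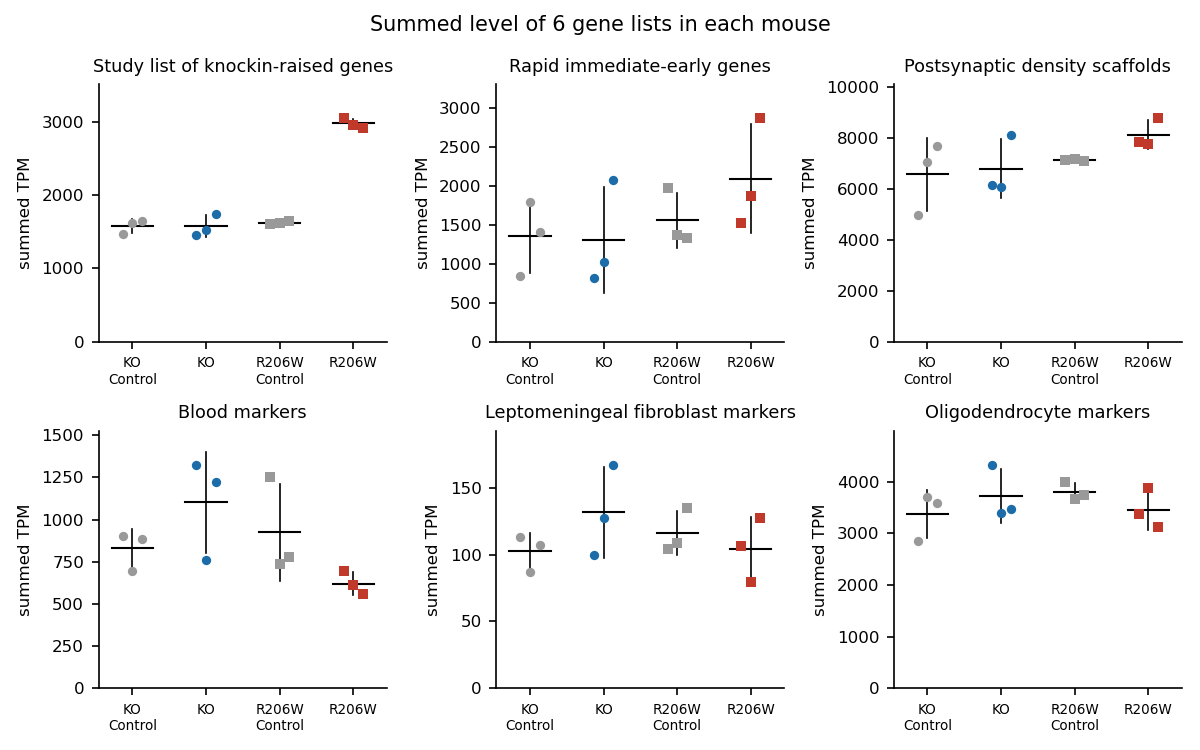
Summed TPM of 6 gene lists in each of the 12 mice, on axes that start at 0, with symbols, means and SD (n = 3) as in the plot of single genes. The study's list separates R206W mice (2921 to 3051 TPM) from all others, while the sums of the rapid immediate-early, fibroblast and oligodendrocyte lists overlap between mutants and controls in both lines.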

How the data were processed

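Cortical RNA of 17 mice had been sequenced from stranded total RNA libraries. Per the submitters' processing notes, Trim Galore, STAR 2.7.1a, GATK 4.0.4.0 and RSEM were used with build mm10; the annotation and the strand setting are not given in the sources used here. The authors deposited TPM per gene, which sum to the same total in each sample, so read depth is unknown and no interval from counting is given. TPM depend on what the rest of the library holds, so a large mitochondrial share lowers all other values.

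Of 55573 entries, those sharing a symbol (120 symbols) were summed, giving 55453 symbols, of which 98.3% matched GENCODE M21. All 17 samples were fitted with 6 group means in limma 3.58.1 (R 4.3.3; eBayes with trend, 11 residual degrees of freedom) on log2(TPM + 1), which understates changes of low genes, for 16265 genes with a mean of at least 1 TPM. P-values were Benjamini-Hochberg adjusted over these genes. The p-values treat the mice as unpaired. They set each difference against the spread of mice within the 6 groups, pooled per gene and moderated across genes by eBayes. The fit was tested on simulated data.

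Genes named were all those at an adjusted p under 0.05, the 12 with the smallest p in each direction, the hnRNP H/F family and 2 neighbouring genes (Rpl36a and Gla), the 10 genes of the study, and in each of 42 lists the members at an unadjusted p under 0.05 or else the member with the smallest p. A few genes that the rule names are not reported here. Arc, Npas4, Ovol1 and B130046B21Rik were named after their values were seen. Lists (940 genes, 903 tested) are described by counts and medians. The comparison, its members and the lists were chosen with earlier results of these data known. Alternatives numbered 25: other pseudocounts, filters, scalings, samples and weights, a replicate block, and each of the 12 mice left out. Sequences came from RefSeq on GRCm38.p6.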

Additional observations from a re-analysis of the deposited data

Results flagged for a closer look

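For 5 genes the KO and R206W effects differed by a test of the difference itself (limma interaction, 3 mice per group). The difference, KO effect minus R206W effect in log2(TPM + 1), was -2.31 for Hnrnph2, -1.40 for Gm31166, -1.10 for Ppp1r9b, -0.94 for Ddn and -0.85 for Ilrun, with adjusted p of 0.00106, 0.00406, 0.00406, 0.0273 and 0.0273. Genotypes were also permuted exactly within each line, which asks whether either genotype matters. The two-sided permutation p were 0.05, 0.1, 0.05, 0.045 and 0.05 in the same order. The smallest possible p, 0.005, is reached only with the most extreme split in both lines, in opposite directions. Each of these genes differed through 1 line, so the permutation could not come down to it. Groups held 3 mice and were too small for a test of single outlying mice.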

How the results depend on the processing

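The count of 5 genes at an adjusted p under 0.05 was 3 in a fit on the 12 mice alone, 319 with sample weights, and 9 with median-of-ratios scaling and no KO Control 1, an alternative chosen after seeing the data. Leaving out 1 mouse gave 3 to 12 genes, the highest without KO Control 1. The 373 genes at an unadjusted p under 0.05 became 1192 with no filter on low values, 214 at a mean TPM of at least 5, 3459 with sample weights and 1121 with median-of-ratios scaling and no KO Control 1, and leaving out 1 mouse gave 281 to 1136. Sample weights gave KO Control 1 a weight of 0.0819, against 0.236 to 4.01 for the other mice. Ddn also lost its call with no filter on low values (adjusted p = 0.07852), under median-of-ratios scaling (0.07838), in the fit on 12 mice (0.1003) and after removing a trend with length and GC content (0.203), and Ilrun in the fit on 12 mice (0.128). In the remaining fits the cause of a changed count was not tested.

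The labels do not say whether same-numbered mice are paired, and the main fit did not pair them. Deviations of same-numbered mutant and control mice correlated at 0.117, -0.058 and 0.331 in the KO line. In the R206W line they correlated at -0.028, -0.03 and -0.113. Differently numbered mice ranged from -0.299 to 0.265 in the KO line and from -0.075 to 0.102 in the R206W line. With 3 mice per group these values cannot decide whether the mice are paired. A fit with the replicate block gave 1 gene at an adjusted p under 0.05, Hnrnph2, with 461 at an unadjusted p under 0.05, and adjusted p of 0.0645 for Ppp1r9b and Gm31166.

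Among the named genes run under all alternatives, directions reversed for Hnrnph3, Hnrnpf, Rpl36a and Npas4, none of which had been called. Hnrnph3 ran from -0.0397 to 0.2765 over the fits that left out 1 mouse, the lowest without KO Control 1. Hnrnpf was at -0.14 with sample weights, between -0.15 (without KO Control 1) and 0.2825 when 1 mouse was left out, and -0.10 with median-of-ratios scaling and no KO Control 1. Rpl36a was at 0.006061 with quantile normalization, 0.21 with sample weights, 0.32 with median-of-ratios scaling and no KO Control 1, and from -0.1922 to 0.2595 when 1 mouse was left out. Npas4 was at -0.1486 with sample weights and from -0.05518 to 0.4439 when 1 mouse was left out. Of the other values of named genes, 1350 kept their direction and side of the threshold, 43 gained a call and 29 lost one. Of 1049 list medians, 49 moved by more than the spread between mice, 24 of them without KO Control 1.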
